A study of Mus musculus with 208 samples.

Results

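Egr1, Egr2, Egr3 and Egr4 encode zinc finger transcription factors, and Nr4a1, Nr4a2 and Nr4a3 encode orphan nuclear receptors. The 7 genes (Egr1 ENSMUSG00000038418, Egr2 ENSMUSG00000037868, Egr3 ENSMUSG00000033730, Egr4 ENSMUSG00000071341, Nr4a1 ENSMUSG00000023034, Nr4a2 ENSMUSG00000026826, Nr4a3 ENSMUSG00000028341) were taken by symbol from the 39179 genes of the expression files, and their levels were followed in striatal polyadenylated RNA of 144 knock-in and 64 wild-type libraries. The mice were C57BL/6. Heterozygous knock-in mice of the Huntington disease lines Q20, Q80, Q92, Q111, Q140 and Q175, named for the CAG length of the huntingtin allele, were taken at 2, 6 and 10 months with wild types, in 26 groups of 8 libraries. Q20, whose repeat lies in the normal range, served as the reference line at every age. At 6 months each of the 6 lines had a wild-type group housed with it. At 2 and 10 months the wild types used here were those housed with Q20. Each group had 4 females and 4 males, except for Q80 at 2 months (3 and 5) and Q20 at 10 months (5 and 3). All knock-in mice kept a wild-type huntingtin allele. No source used here says how many animals gave each library, so p-values measure the spread between libraries.

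All 7 are immediate early genes, whose transcription starts within minutes of a stimulus and needs no new protein. In neurons, synaptic activity and calcium entry reach their promoters through ERK and its targets Elk1 and Srf, and through kinases that phosphorylate Creb1. Egr proteins bind a GC-rich site and are held back by the corepressors Nab1 and Nab2. Nr4a receptors act without a known natural ligand on a site called the NBRE, and Nr4a1 and Nr4a2 also pair with retinoid X receptors. In the striatum, dopamine and cortical glutamate induce several of these genes in the medium spiny projection neurons, the cells lost early in Huntington disease. Nr4a2 is best known as a factor that midbrain dopamine neurons need, and in the forebrain it marks the claustrum and deep cortical layers.

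Proximal promoters were searched for sequences of the kind through which activity can reach these genes. The 250 bases before the RefSeq transcription start (build GRCm38.p6, printed 5′ to 3′ on the gene's strand) are shown for 5 of the 7 genes. The promoters of Egr1 and Egr3 were not searched, so the matches below do not describe them. Capitals mark 2 kinds of match: the core of the cyclic AMP response element, TGACG on either strand (printed CGTCA where it lies on the other strand), and the CArG box bound by Srf.
Egr2, chr10:67537619-67537868, plus strand: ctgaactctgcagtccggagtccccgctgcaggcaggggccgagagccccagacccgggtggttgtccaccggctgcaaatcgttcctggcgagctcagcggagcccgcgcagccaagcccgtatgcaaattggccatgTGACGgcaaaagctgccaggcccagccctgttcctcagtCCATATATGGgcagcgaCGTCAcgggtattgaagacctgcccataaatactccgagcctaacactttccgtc
Egr4, chr6:85513590-85513839, minus strand: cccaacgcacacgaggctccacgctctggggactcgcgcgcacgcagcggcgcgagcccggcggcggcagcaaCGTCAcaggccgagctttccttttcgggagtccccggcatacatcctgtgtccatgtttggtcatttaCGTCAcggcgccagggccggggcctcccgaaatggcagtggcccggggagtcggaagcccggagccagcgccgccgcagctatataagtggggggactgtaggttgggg
Nr4a1, chr15:101266596-101266845, plus strand: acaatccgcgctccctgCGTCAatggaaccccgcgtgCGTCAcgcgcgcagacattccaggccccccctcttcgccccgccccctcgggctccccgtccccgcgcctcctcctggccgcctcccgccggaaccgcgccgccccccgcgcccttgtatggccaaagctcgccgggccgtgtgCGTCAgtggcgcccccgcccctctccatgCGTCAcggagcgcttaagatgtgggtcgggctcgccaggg
Nr4a2, chr2:57124004-57124253, minus strand: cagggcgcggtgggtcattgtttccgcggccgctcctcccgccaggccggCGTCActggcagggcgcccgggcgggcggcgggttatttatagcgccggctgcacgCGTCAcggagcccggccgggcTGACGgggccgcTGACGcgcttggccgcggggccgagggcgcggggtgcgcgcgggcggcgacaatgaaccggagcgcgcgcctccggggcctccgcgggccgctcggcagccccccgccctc
Nr4a3, chr4:48045055-48045304, plus strand: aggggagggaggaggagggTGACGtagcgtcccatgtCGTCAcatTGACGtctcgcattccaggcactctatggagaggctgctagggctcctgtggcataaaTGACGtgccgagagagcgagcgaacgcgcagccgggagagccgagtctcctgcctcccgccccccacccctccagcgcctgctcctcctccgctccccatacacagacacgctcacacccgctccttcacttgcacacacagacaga
All 5 windows held at least 2 TGACG sites, against 17.8% of 32851 RefSeq mouse promoter windows of the same length with 1 or more. Egr2 and Egr4 had 2 each, and Nr4a1, Nr4a2 and Nr4a3 had 4 each. Egr2 was the only one of the 5 with a CArG box, searched by name on both strands, which 1.47% of all windows held. It lay 72 to 63 bases before the start, next to a TGACG site at 55 to 51 bases. The full response element TGACGTCA (1.55% of all windows), the Egr site GCGTGGGCG (0.536%) and the NBRE letters AAAGGTCA (1.34%) were in none of the 5 windows. A match is a description of letters and not a measured site. The start given for Nr4a3 lies 152 bases from that of its principal annotated transcript.

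The genes spanned a wide range of levels, given as FPKM, fragments per kilobase of transcript per 1000000 fragments, which allows for gene length. Over all libraries Egr1 had the highest mean (88.3 FPKM), followed by Nr4a1 (42.1 FPKM), Egr3 (28.3 FPKM) and Egr4 (10.2 FPKM). Egr2 (4.68 FPKM), Nr4a3 (4.25 FPKM) and Nr4a2 (2.07 FPKM) were the lowest. Egr2 and Nr4a3 differed by far less than their SDs over libraries of 2.70 and 2.21 FPKM, and their order was not tested. Even the weakest members were well counted: Nr4a2 had 38 to 1894 counts in a library and Egr2 31 to 1412. In wild types Egr1 averaged 91.4 ± 34.2 FPKM at 2 months, 100.1 ± 26.8 FPKM at 6 months and 71.7 ± 18.7 FPKM at 10 months (SD, n = 8, 48 and 8). Wild-type Egr3 likewise averaged 27.5 ± 4.44, 36.9 ± 6.47 and 19.8 ± 2.47 FPKM at the 3 ages, and Egr4 9.30 ± 5.21, 14.3 ± 7.14 and 4.89 ± 1.43 FPKM. These levels by age come from different animals and were not tested.

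Before any comparison of lines, the spread between libraries of one group was large for every member. After group and sex were removed, Egr2 had a residual SD on the log2 scale of CPM, counts per 1000000 counts, of 0.74 at 2 months, 0.79 at 6 months and 0.70 at 10 months, against a median over all genes tested of 0.23, 0.12 and 0.14. Nr4a2 had 0.97, 1.15 and 0.91. Egr1 had 0.41, 0.41 and 0.36. Egr3 at 6 months (0.24) and at 10 months (0.25) varied least. Among the 500 tested genes nearest in level, the 7 genes stood between the 96th and the 100th percentile of spread at every age, and among all genes tested between the 73.5th and the 98.8th, given as a description. One wild-type male housed with Q80 at 6 months had the highest level in the series of Egr4 (49.9 FPKM), Nr4a1 (143.3 FPKM) and Nr4a3 (17.04 FPKM), and it was not set apart from its own group in Egr2 (6.81 FPKM).

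Some libraries stood apart before any result. At 2 months 5 male libraries (2 of Q20, 1 of Q80 and 2 of Q92) had a median correlation of log2 CPM under 0.97 with the other libraries of that age, and 7 libraries had a mitochondrial share of 17.2 to 24.1% of counts, where the rest had 11.4 to 14.9%. No library fell past either limit at 6 or 10 months. One Q80 library of 2 months labelled male (M3) went against its label: 4 Y-linked genes were at 0 in it, where the other 103 male libraries had at least 6.94 FPKM of Ddx3y, and its name holds the code of the Q80 females of that age. Its Xist level of 0.0251 FPKM was in the range of the males (up to 0.469 FPKM), against 64.7 to 139 FPKM in libraries labelled female. The Q20 female numbered F5 at 10 months, whose name holds the code of the Q20 males, had female levels of Xist (128 FPKM) and Ddx3y (0.0138 FPKM). Without the Q80 M3 library no member was called in any line, in the trend or for sex at 2 months by edgeR, as with it. Total counts, in units of 1000000, ran from 29.1 to 49.6 per library, with medians of 31.9, 41.0 and 33.0 at 2, 6 and 10 months. All 7 genes passed the filter on low counts at every age. The 18 medium spiny neuron markers were all above 0 in the Q20 libraries of 6 months and summed to 5013 to 5883 FPKM. Their lowest sum in Q175 at 10 months was 2227 FPKM. Markers of other tissue were high in some libraries. At 6 months the sum of 8 choroid plexus markers reached 4600 FPKM in Q80 and 4622 FPKM in wild types housed with Q80. At 10 months the sum of 6 thalamic markers reached 304.9 FPKM in Q80.

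**Figure D1:**
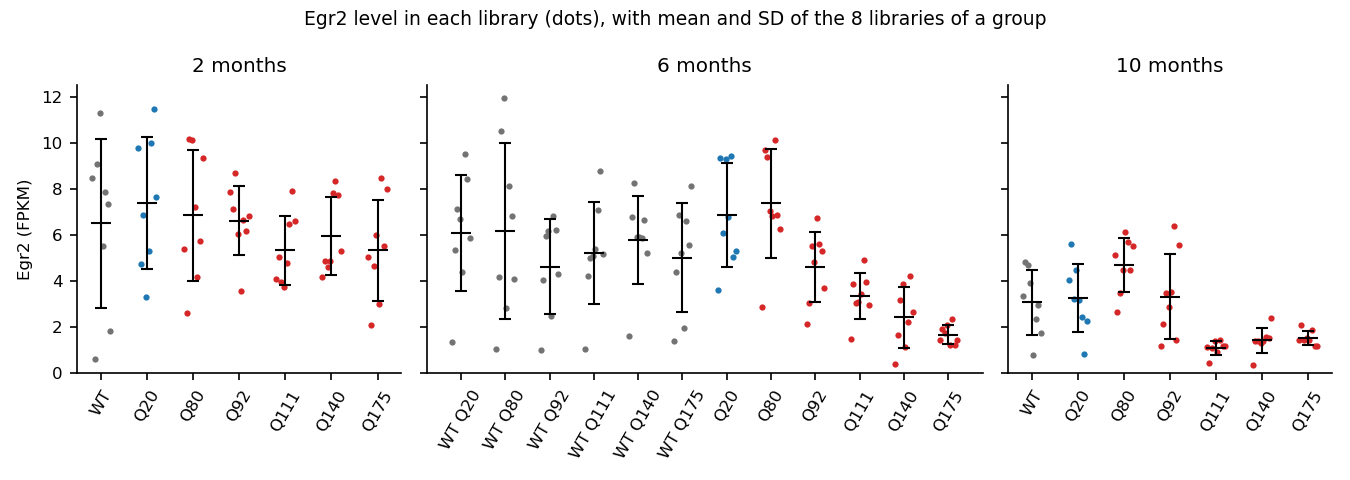
Egr2 level (FPKM, linear axis) in each library, with 1 panel per age. Dots are libraries, and bars are the mean and SD of the 8 libraries of a group, with wild types in grey (at 6 months named for the line they were housed with), Q20 in blue and longer lines in red. At 6 months the mean falls along the lines from Q80 to Q175, and the 8 Q175 libraries (1.20 to 2.36 FPKM) lie below all 8 Q20 libraries (3.62 to 9.45 FPKM).

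At 6 months the Egr genes and Nr4a1 were lower in Q175 than in Q20, the pair of lines farthest apart in repeat length. In the edgeR quasi-likelihood test, with Benjamini-Hochberg adjusted p under 0.05 as the threshold for a call, 5 of the 7 genes fell and none rose. Over all 17642 genes tested, 18.2% fell and 18% rose in this comparison.

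Egr2, whose best known role is in myelinating Schwann cells and which is activity-induced in neurons, fell most among the 7 genes. It had 1.20, 1.60 and 2.36 FPKM as lowest, median and highest value in Q175, against 3.62, 6.43 and 9.45 FPKM in Q20, so that the groups did not overlap. The log2 fold change was -2.11 (SE 0.36, edgeR adjusted p = 1.41e-06), from means of 1.67 ± 0.42 FPKM in Q175 and 6.87 ± 2.26 FPKM in Q20 (SD, n = 8 each). Egr3, which binds the same GC-rich site as Egr1, ran from 21.4 to 31.1 FPKM with a median of 27.4 in Q175, against 31.7 to 50.9 with a median of 39.7 in Q20. Its groups did not overlap either, and its log2 fold change of -0.66 (SE 0.12) had an edgeR adjusted p of 5.97e-06. The share of all genes without overlap between these groups was not computed, so the lack of overlap is a description only. Egr1, the widely used marker of recent neuronal activity, had a lowest, median and highest value of 54.6, 64.0 and 77.6 FPKM in Q175, against 70.8, 123.6 and 140.2 FPKM in Q20. The groups overlapped through 1 low Q20 female, numbered F1 in the labels, and its log2 fold change was -0.93 (SE 0.20, edgeR adjusted p = 7.71e-05).

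Egr4, a further zinc finger member of the family, ran from 7.29 to 13.3 FPKM with a median of 8.99 in Q175 and from 8.90 to 18.5 FPKM with a median of 15.7 in Q20. The groups overlapped and the call was near the threshold, with a log2 fold change of -0.71 (SE 0.27, edgeR adjusted p = 0.031). Without a filter on low counts the adjusted p was 0.051, and leaving out single libraries took it to between 0.019 and 0.062, past the threshold without Q175 F1, M1 or M3 or Q20 F3 or F4. Nr4a1 (Nur77), which dopamine loss and antipsychotic drugs are known to alter in medium spiny neurons, ran from 23.3 to 40.2 FPKM with a median of 29.5 in Q175, against 30.5 to 75.5 FPKM with a median of 52.7 in Q20. Its log2 fold change was -0.94 (SE 0.29, edgeR adjusted p = 0.0078).

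The other 2 receptors did not pass the threshold in the fit with group and sex as terms. Nr4a3 (Nor1) averaged 2.96 ± 1.05 FPKM in Q175 and 5.05 ± 2.22 FPKM in Q20 (SD, n = 8 each), a log2 difference of -0.84 (SE 0.41, edgeR adjusted p = 0.10). All 8 Q175 libraries lay below the Q20 mean, and without the libraries numbered F1 the difference of -0.85 (SE 0.32) had an adjusted p of 0.031. An edgeR fit with 1 term per replicate number of the labels called Nr4a3 as well (adjusted p = 0.0013). Nr4a2 (Nurr1) had a lowest, median and highest value of 1.08, 1.52 and 2.99 FPKM in Q175, against 0.549, 0.684 and 6.39 FPKM in Q20. The log2 difference was 0.20 (SE 0.59, edgeR adjusted p = 0.83), and 1 Q20 male held the highest of the 16 values. Without that male (M3) the difference was 1.24 (SE 0.63, edgeR adjusted p = 0.12), so the value near 0.20 rested on that library.

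Of the 18 markers of the medium spiny neurons, 17 were also lower in Q175 than in Q20 at 6 months. In this comparison 18.2% of all genes fell and 18% rose. The summed level of the 18 markers was 2946 to 3345 FPKM in Q175, against 5013 to 5883 FPKM in Q20. In bulk RNA, fewer neurons of a type and less RNA per neuron cannot be told apart. Among other cells, 7 of 8 endothelial and mural markers were lower, with a summed level of 111 to 125 FPKM in Q175 and 118 to 135 FPKM in Q20. Of 5 oligodendrocyte markers 3 were lower, with a summed level of 3338 to 4156 FPKM in Q175 and 3630 to 4466 FPKM in Q20, and of 6 striatal interneuron markers 3 were lower. Of 6 thalamic neuron markers 1 was higher and none lower, with a summed level of 18.5 to 113 FPKM in Q175 and 14.7 to 27.4 FPKM in Q20. The part of these cells in the fall of the Egr genes was not tested.

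Between the extremes, the number of members called grew with repeat length at 6 months. None of the 7 was called by edgeR, DESeq2 or limma in Q80 (0.085% of all genes fell) or in Q92 (2.99% fell), where 0 and 2 members had an unadjusted p under 0.05. Egr2 and Egr3 fell in Q111 (7.45% of all genes fell), and Egr1, Egr2, Egr3 and Nr4a1 fell in Q140 (14.1% of all genes fell). An edgeR fit with 1 term per replicate number also called Egr1 and Egr3 in Q92 and Egr1 in Q111. In Q140 that fit added Egr4, Nr4a3 and Nr4a2 (higher). Egr2 had log2 differences from Q20 of 0.08 in Q80, -0.62 in Q92, -1.07 in Q111, -1.55 in Q140 and -2.11 in Q175, with SEs of 0.33 to 0.36. Its edgeR adjusted p was 0.94, 0.30, 0.024, 3.35e-04 and 1.41e-06 along the same lines. The lowest, median and highest Egr2 libraries had 1.495, 3.27 and 4.92 FPKM in Q111, 0.386, 2.44 and 4.21 FPKM in Q140, and 3.62, 6.43 and 9.45 FPKM in Q20. Egr2 group means were 6.87 ± 2.26 in Q20, 7.38 ± 2.37 in Q80, 4.61 ± 1.52 in Q92, 3.35 ± 0.99 in Q111, 2.42 ± 1.33 in Q140 and 1.67 ± 0.42 FPKM in Q175 (SD, n = 8 each). Each pair of neighbouring lines lay within the larger of its 2 SDs, except Q92 against Q80.

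Egr3 means declined at every step along the lines at 6 months, with 40.6 ± 6.14 FPKM in Q20, 38.9 ± 4.77 in Q80, 34.4 ± 8.35 in Q92, 31.6 ± 5.28 in Q111, 27.8 ± 5.23 in Q140 and 27.0 ± 3.83 in Q175. It was called in Q111 at a log2 fold change of -0.39 (SE 0.12, edgeR adjusted p = 0.018) and in Q140 at -0.59 (SE 0.12, edgeR adjusted p = 6.62e-05). Egr1 was called in Q140 at -0.72 (SE 0.20, edgeR adjusted p = 0.0030), where its libraries ran from 35.6 to 107.9 FPKM, against 70.8 to 140.2 FPKM in Q20. Nr4a1 was called in Q140 at -0.76 (SE 0.29, edgeR adjusted p = 0.041), a call lost with no filter on low counts (adjusted p = 0.067) and with only the 2 groups in the fit (0.071). The Q111 call of Egr2 had an adjusted p of 0.065 with the scores of cortical, thalamic and choroid plexus markers as covariates, and both Q111 calls were lost with all wild types as the reference.

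A linear trend over the 6 lines at 6 months was called lower for 6 of the 7 genes, where 20.7% of all genes fell with repeat length. Egr2 fell by 0.15 on the log2 scale per 10 repeats (SE 0.021, edgeR adjusted p = 5.38e-09). Egr1 changed by -0.065 (SE 0.012), Egr3 by -0.048 (SE 0.0072), Egr4 by -0.052 (SE 0.016), Nr4a1 by -0.067 (SE 0.017) and Nr4a3 by -0.064 (SE 0.024), with edgeR adjusted p from 3.13e-08 for Egr3 to 0.025 for Nr4a3. Nr4a2 had 0.027 (SE 0.035, adjusted p = 0.57). Repeat length differs only between lines, so these errors hold no spread between lines of one length, and the Nr4a3 trend was not called without Q175 (adjusted p = 0.14).

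**Figure D2:**
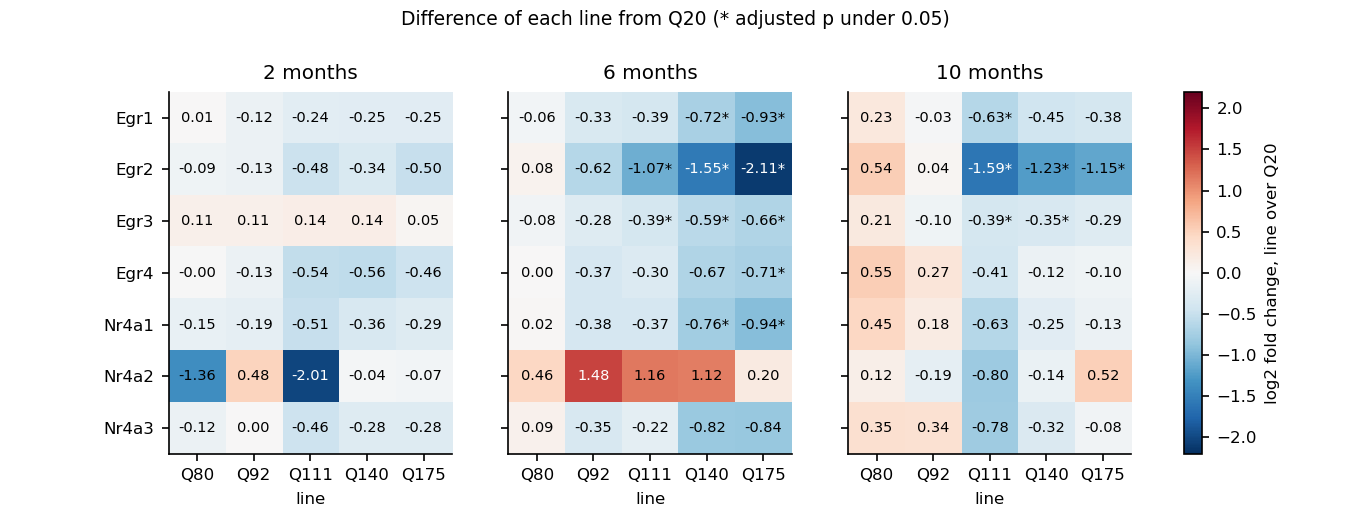
Log2 fold change of each longer line over Q20 (colour and printed value) for the 7 genes, with lines in order of repeat length and 1 panel per age. A star marks an edgeR adjusted p under 0.05, and calls are found at 6 and 10 months from Q111 upward, most for Egr2, with none at 2 months.

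Wild types housed with each line gave a reference that shares no library with Q20. Against their own wild types at 6 months, Egr1, Egr2 and Egr3 fell in Q175 (16.1% of all genes fell) and in Q140 (11.7% fell), and no member was called in Q111 (4.66%), Q92 (0.034%), Q80 (0.0283%) or Q20 (0.00567%). In those 4 lines 0 members had an unadjusted p under 0.05, and DESeq2 and limma called 0. The edgeR fit with 1 term per replicate number did call Egr3 in Q111. It added Egr4, Nr4a1 and Nr4a3 in Q140 and Egr4 and Nr4a1 in Q175. Egr2 ran from 1.20 to 2.36 FPKM in Q175, against 1.39 to 8.13 FPKM in its wild types, a log2 fold change of -1.66 (SE 0.36, edgeR adjusted p = 1.51e-04). In Q140 the Egr2 change was -1.29 (SE 0.35, edgeR adjusted p = 0.0037). Egr3 changed by -0.57 (SE 0.12) in Q175 and -0.42 (SE 0.12) in Q140, with edgeR adjusted p of 7.59e-05 and 0.0066. Egr1 changed by -0.69 (SE 0.20, edgeR adjusted p = 0.0035) in Q175. Its Q140 value of -0.50 (SE 0.20) sat at the threshold with an adjusted p of 0.0497 and was not called without the filter on low counts (0.083), with the L code of the library names as a covariate (0.086) or with the tissue scores (0.051). Nr4a1 had -0.59 (SE 0.29, adjusted p = 0.12) in Q175 against its own wild types.

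The 6 wild-type groups of 6 months, which share genotype and age, were called different in none of the 7 genes (edgeR F test, smallest adjusted p 0.53, for Egr4, with 0 members at an unadjusted p under 0.05, where 1.34% of all genes were called). Egr2 group means of these wild types ran from 4.62 ± 2.05 FPKM to 6.19 ± 3.82 FPKM, and those of Egr1 from 94.1 ± 26.1 FPKM to 103.5 ± 28.2 FPKM (SD, n = 8 each). Q20 itself was not called against its wild types in any of the 7 genes at any age by edgeR, DESeq2 or limma, with 1, 0 and 0 at an unadjusted p under 0.05 at 2, 6 and 10 months, where 0% and 0.0116% of all genes were called in either direction at 2 and 10 months. At 6 months its Egr1 difference was 0.20 (SE 0.20) and its Egr2 difference 0.19 (SE 0.33).

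At 10 months Egr2 was again the gene that fell most among those called. Fewer members passed than at 6 months in Q140 and Q175, and more in Q111 (3 against 2). The fit of 6 months held 96 libraries and that of 10 months 56, so these counts are not on an equal footing. Egr2 alone was called in Q175, where 12.1% of all genes fell. It had a lowest, median and highest value of 1.16, 1.45 and 2.08 FPKM in Q175, against 0.831, 3.195 and 5.61 FPKM in Q20. The groups overlapped through 1 low Q20 library, and the log2 fold change was -1.15 (SE 0.32, edgeR adjusted p = 0.0060). In Q140, Egr2 (-1.23, SE 0.33, edgeR adjusted p = 0.0041) and Egr3 (-0.35, SE 0.12, edgeR adjusted p = 0.028) fell, where 11.6% of all genes did. In Q111, Egr1 (-0.63, SE 0.17, edgeR adjusted p = 0.0092), Egr2 (-1.59, SE 0.33, edgeR adjusted p = 4.36e-04) and Egr3 (-0.39, SE 0.12, edgeR adjusted p = 0.023) fell, where 6.9% of all genes did. No member was called in Q92 (0.78% fell) or Q80 (0.0291% fell) by edgeR, DESeq2 or limma, with 0 and 1 at an unadjusted p under 0.05.

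The order of the lines at 10 months was not that of repeat length. Egr2 averaged 3.26 ± 1.48 FPKM in Q20, 4.70 ± 1.18 in Q80, 3.32 ± 1.86 in Q92, 1.10 ± 0.31 in Q111, 1.42 ± 0.56 in Q140 and 1.53 ± 0.32 in Q175 (SD, n = 8 each). Q140 lay within its SD of Q111 and of Q175, and Q80 was the highest. Egr1 averaged 71.5 ± 21.5, 84.7 ± 19.4, 70.5 ± 18.2, 47.6 ± 6.88, 54.8 ± 12.5 and 57.5 ± 6.46 FPKM in the same order. All 7 genes had a positive log2 difference from Q20 in Q80, of which Egr4 was the nearest to a call (0.55, SE 0.21, edgeR adjusted p = 0.15). The trend at 10 months was called for Egr1 (-0.038 per 10 repeats, SE 0.010), Egr2 (-0.11, SE 0.019) and Egr3 (-0.029, SE 0.0071), with edgeR adjusted p of 0.0026, 8.46e-06 and 0.0012, where 16.6% of all genes fell. The Q140 call of Egr3 was lost with the tissue scores as covariates (adjusted p = 0.15) and without the libraries numbered F1 (0.11).

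None of the 3 receptors was called in Q175 against Q20 at 10 months. Nr4a1 averaged 29.2 ± 7.77 FPKM in Q175 and 30.6 ± 9.78 FPKM in Q20, a log2 difference of -0.13 (SE 0.24, edgeR adjusted p = 0.74). Nr4a3 averaged 3.45 ± 0.81 FPKM in Q175 and 3.4 ± 1.61 FPKM in Q20 (SD, n = 8 each), with -0.08 (SE 0.32, edgeR adjusted p = 0.90). Of the medium spiny neuron markers, 17 of 18 were lower in Q175 at 10 months, where 12.1% of all genes fell. Their summed level was 2227 to 2850 FPKM in Q175, against 3481 to 4501 FPKM in Q20.

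At 2 months no member was called by edgeR, DESeq2 or limma in any line, where 0% of all genes fell in Q80, Q92 and Q140, 0.0118% in Q111 and 0.188% in Q175, or in the trend (0.482% fell). At an unadjusted p under 0.05 there were 0 members in Q92, Q140 and Q175 and 1 each in Q80, Q111 and the trend. Egr2 averaged 5.34 ± 2.2 FPKM in Q175 and 7.39 ± 2.87 FPKM in Q20, a log2 difference of -0.50 (SE 0.32, edgeR adjusted p = 0.83). In the same fit 32 genes were lower in Q175. Egr2 spread more than most genes at this age, with a residual SD of 0.74 against a median of 0.23. Calls on other genes therefore do not show that a moderate fall in a member would be seen. Nr4a2 in Q111 was the member with an adjusted p nearest the threshold in the DESeq2 test at this age (0.081), with libraries from 0.384 to 0.939 FPKM, against 0.567 to 8.83 FPKM in Q20. Its log2 difference was -2.01 (SE 0.51), with an unadjusted p of 2.30e-04 and an edgeR adjusted p of 0.48, and it was -0.58 (SE 0.28) with the tissue scores as covariates. The summed level of 5 claustrum and deep-layer markers was 34.6 to 41.3 FPKM in Q111 and 39.5 to 55.7 FPKM in Q20 at this age.

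How far the effect of Q175 changed with age was tested. The values came from a fit of all libraries, with different animals at each age. The Egr2 fall in Q175 was larger at 6 than at 2 months by 1.60 on the log2 scale, written as a difference of -1.60 (SE 0.47, edgeR adjusted p = 0.016, 7.88% of all genes called in either direction). Between 6 and 10 months its difference of 0.90 (SE 0.49) was not called (adjusted p = 0.95, 0.0112% of all genes called). Egr1 had -0.68 (SE 0.27, adjusted p = 0.10) between 2 and 6 months, which was -0.88 (SE 0.28, adjusted p = 0.029) without the 5 libraries that stood apart. For Nr4a2 the Q111 effect differed between 6 and 2 months by 3.24 (SE 0.79, edgeR adjusted p = 0.0076, 2.42% of all genes called), and by 0.87 (SE 0.37, adjusted p = 0.24) with the tissue scores as covariates.

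Of the 7 genes, 1 was called for sex. Egr3 was higher in males than in females at 6 months by 0.20 on the log2 scale (SE 0.049, edgeR adjusted p = 0.0023), where 8.73% of all genes were higher in males. The serial numbers in the library names of that age put males before females in every line, so sex and serial order cannot be told apart. No other member was called for sex at any age (0.923% and 1.28% of all genes called in either direction at 2 and 10 months, with 2 and 0 members at an unadjusted p under 0.05). The edgeR test of the Q175 effect between the sexes called 0% of all genes at each age, with 0, 0 and 1 members at an unadjusted p under 0.05 at 2, 6 and 10 months. The Egr2 effect of Q175 differed between males and females at 6 months by -0.15 (SE 0.75, unadjusted p = 0.84, edgeR quasi-likelihood test).

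The spread of several members was itself narrow in Q175 at 6 and 10 months, though not only in that line. The SD of log2 CPM over the 8 libraries of a group was lowest in Q175 among the 12 groups of 6 months for Egr1 (0.20), Egr2 (0.38), Egr4 (0.31), Nr4a1 (0.32), Nr4a2 (0.53) and Nr4a3 (0.63). The medians over the 12 groups were 0.40, 0.80, 0.50, 0.63, 1.08 and 0.85. At 10 months Q175 had the lowest SD of 7 groups for Egr1 (0.17), Egr2 (0.30), Egr4 (0.23) and Nr4a3 (0.33). Q111 had the lowest there for Egr3 (0.11), Nr4a1 (0.37) and Nr4a2 (0.59). It also had the lowest at 2 months for Egr4 (0.37), Nr4a1 (0.29), Nr4a2 (0.39) and Nr4a3 (0.64). Other genes were not compared in this way. These SDs are a description and were not tested.

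At 6 months a numbered library stood out within nearly every group, which was noticed after the values were seen. The labels number the females F1 to F4 and the males M1 to M4. F1 lay below the other 3 females of its group in 12 of 12 groups for Egr1, Egr2, Egr4, Nr4a1 and Nr4a3, in 9 groups for Egr3 and in 1 group for Nr4a2. Egr2 had 0.386, 1.41 and 3.62 FPKM as the lowest, median and highest of 12 F1 libraries, against 1.66, 5.28 and 11.9 FPKM in the other 36 female libraries. Nr4a3 had 0.768, 1.07 and 1.89 FPKM in the F1 libraries, against 1.41, 4.89 and 8.90 FPKM in the other females. Nr4a1 medians were 20.3 and 49.6 FPKM, those of Egr1 54.5 and 105.1 FPKM, and those of Egr4 6.25 and 14.3 FPKM, F1 libraries before the others. The 12 groups are 6 knock-in and 6 wild-type groups.

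In an edgeR fit with 1 term per replicate number, the F1 libraries differed from those numbered F2 to F4 at 6 months by -2.03 (SE 0.16) in Nr4a3, -1.77 (SE 0.17) in Egr2, -1.34 (SE 0.14) in Nr4a1, -1.09 (SE 0.11) in Egr4, -0.93 (SE 0.072) in Egr1 and -0.34 (SE 0.053) in Egr3. The edgeR adjusted p ran from 4.43e-17 for Egr1 and Nr4a3 to 1.12e-06 for Egr3. Nr4a2 had -0.078 (SE 0.38, adjusted p = 0.92). Over all genes tested, 1886 were lower (10.7%) and 1651 higher in F1. M1 stood below the other males in all 12 groups for Nr4a3 (-1.15, SE 0.14, edgeR adjusted p = 5.95e-09) and in 10 groups for Egr1 and Egr3, where 9.38% of all genes were lower. At 2 and 10 months F1 and M1 differed in none of the genes tested at an adjusted p under 0.05, with Nr4a2 in M1 at 10 months as the 1 member at an unadjusted p under 0.05 in the edgeR test (-1.01, SE 0.40, adjusted p = 0.69). In the library names of 6 months the serial numbers run within each of the 6 lines over 16 libraries, males before females, and the F1 pair of knock-in and wild type comes first of the females and the M1 pair first of the males in 6 of 6 lines. All 48 same-numbered pairs of a knock-in and a wild-type library have neighbouring serial numbers. What these numbers stand for is not given in the sources used here.

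Without the 12 libraries numbered F1 at 6 months, Egr2 had a Q175 log2 fold change of -2.17 (SE 0.26, edgeR adjusted p = 1.34e-10), and Egr1 of -0.99 (SE 0.14, edgeR adjusted p = 3.28e-08). Over all the settings tried, the adjusted p of Egr2 in this comparison ran from 3.401e-12 to 7.55e-06.

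**Figure D3:**
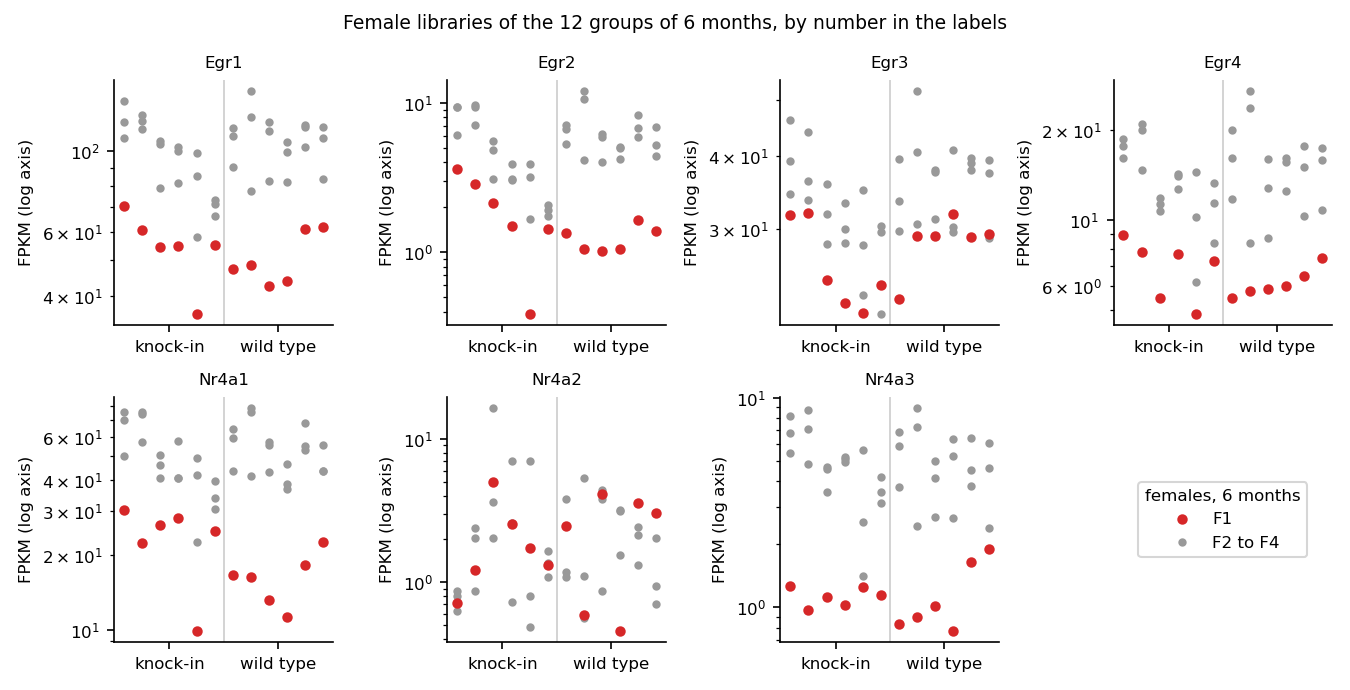
FPKM (log axis) of the 4 female libraries of each of the 12 groups of 6 months, with 1 panel per gene. Red dots are the library numbered F1 and grey dots F2 to F4, with 6 knock-in groups left of 6 wild-type groups and lines from Q20 to Q175 within each, and F1 is the lowest of its 4 females in all 12 groups for Egr1, Egr2, Egr4, Nr4a1 and Nr4a3.

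Apart from Nr4a2, and from Egr3 at 2 months, the members varied together between libraries of one group, in some pairs far more closely than in others. Over the residuals of log2 CPM after group and sex, Egr2 and Nr4a1 had a Pearson r of 0.94 at 2 months, 0.94 at 6 months and 0.92 at 10 months (n = 56, 96 and 56 libraries). Egr1 and Egr2 had 0.91, 0.93 and 0.94. Other pairs were looser, and at 6 months r was 0.79 for Egr2 with Egr4 and 0.51 for Egr3 with Nr4a1. Without the libraries numbered F1 at 6 months (n = 84), r was 0.87 for Egr2 with Nr4a1, 0.83 for Egr1 with Egr2, 0.58 for Egr2 with Egr4 and 0.35 for Egr3 with Nr4a1. Values of one library share its depth and scaling, so these correlations are a description.

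Egr3 at 2 months differed between the libraries apart and the rest. In the 5 libraries under 0.97, Egr3 had 0.569 to 8.84 FPKM, against 14.2 to 39.6 FPKM in the other 51, while Egr4 had 15.1 to 31.9 FPKM, against 3.2 to 20.2 FPKM, and Egr1 had 103 to 163 FPKM, against 33.2 to 144 FPKM. With all 56 libraries Egr3 had an r of -0.51 with Egr4, and in the 51 others r was 0.42 with Egr4, 0.56 with Egr2 and 0.53 with Egr1. The mitochondrial share moved with Egr3 among the 49 libraries under 17% (r = -0.60, Spearman's rho = -0.56), and the 7 above that share include all 5 libraries apart. In those 49 libraries r was negative for every other member too, from -0.13 for Nr4a2 to -0.36 for Egr2. Over all 56 libraries r with the share was -0.91 for Egr3, 0.63 for Egr4 and between -0.07 and 0.33 for the rest. The part of RNA quality in these values was not tested. Without the 5 libraries no member was called in any line at 2 months either.

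Nr4a2 stood outside the joint variation at 6 months and was loosely tied to it at 2 and 10 months. Its r with the other 6 genes was 0.08 to 0.35 at 2 months, -0.02 to 0.12 at 6 months and 0.21 to 0.53 at 10 months. The highest, 0.53 with Nr4a3, was above the 0.41 of Egr3 with Nr4a3 at that age. Nr4a2 values moved with markers of cortex: with the score of 11 cortical excitatory neuron markers r was 0.84, 0.89 and 0.83 at 2, 6 and 10 months. With the 5 claustrum and deep-layer markers r was 0.91, 0.92 and 0.84. The mean of the other 6 genes had r of 0.16, 0.01 and 0.23 with the cortical score. With the medium spiny neuron score it had 0.27, 0.18 and 0.30, and with the endothelial and mural score -0.48, -0.37 and -0.17. A Q92 female of 6 months with the highest Nr4a2 of the series (16.3 FPKM) belonged to a group whose summed cortical markers ran from 73.1 to 275.5 FPKM, and its claustrum score of 2.73 was the highest of all libraries. In Q175 and Q20 of 6 months these summed markers ran from 73.8 to 99.6 FPKM and from 60.7 to 112.1 FPKM. Of the 11 markers 1 was called higher in Q175, where 18% of all genes rose. The part of cortical tissue in the Nr4a2 values was not tested.

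**Figure D4:**
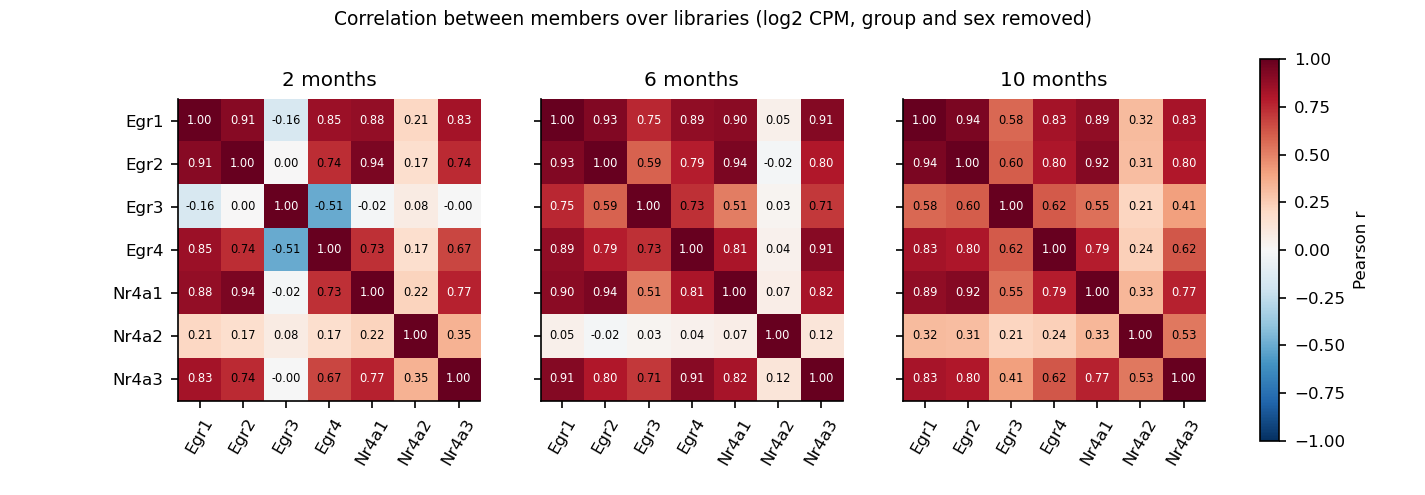
Pearson r between the members over libraries of one age (log2 CPM with group and sex removed, all libraries), with 1 panel per age and n = 56, 96 and 56. Egr1, Egr2, Egr4, Nr4a1 and Nr4a3 correlate at all 3 ages, Nr4a2 stays between -0.02 and 0.53 with the rest, and the 2-month row of Egr3 includes the 5 libraries apart.

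**Figure D5:**
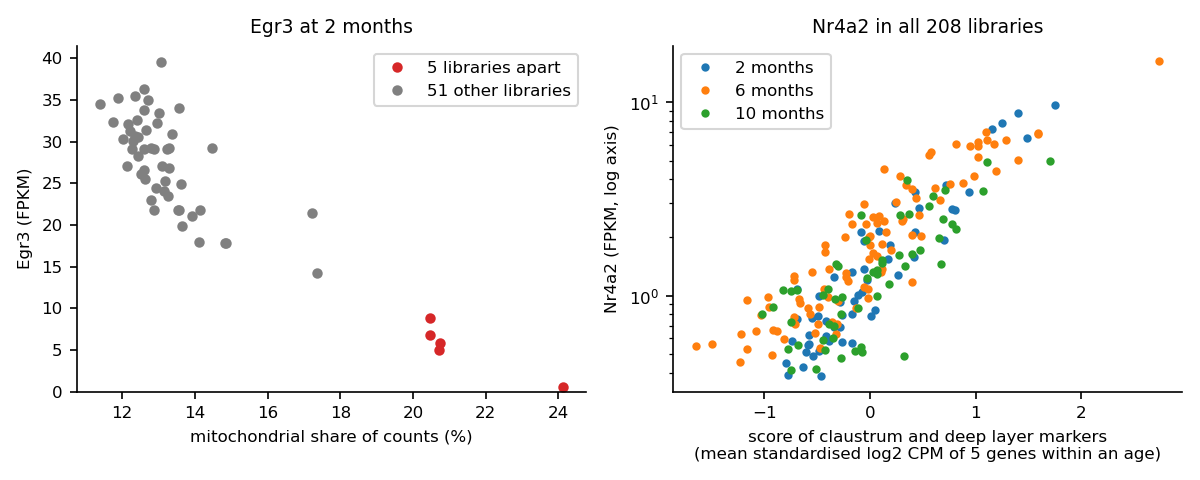
Left, Egr3 (FPKM) against the mitochondrial share of counts (%) in the 56 libraries of 2 months, with the 5 libraries apart in red, all at or under 8.84 FPKM. Right, Nr4a2 (FPKM, log axis) against the score of 5 claustrum and deep-layer markers in all libraries, coloured by age, where the library with the highest score (2.73) has the highest Nr4a2 (16.3 FPKM).

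Other genes of the activity programme fell beside the members in Q175 at 6 months. Of 20 further immediate early genes, 11 fell and none rose, where 18.2% of all genes fell and 18% rose. Their median log2 difference was -0.52, against 0.0097 over all genes tested. Ier5, a heat shock response regulator, fell by 0.53 (SE 0.066, edgeR adjusted p = 1.33e-10), from means of 30.2 ± 2.49 CPM in Q175 and 43.7 ± 3.13 CPM in Q20. Homer1, a scaffold of glutamate receptors with an activity-induced short form, fell by 0.79 (SE 0.13, edgeR adjusted p = 8.99e-07). Npas4, a factor induced by calcium entry alone, fell by 0.99 (SE 0.21, edgeR adjusted p = 5.40e-05), and the clock gene Per1 by 0.66 (SE 0.14, edgeR adjusted p = 1.07e-04). At 10 months, where 12.1% of all genes fell, 3 of the 20 did so, among them Homer1 (-0.58, SE 0.11, edgeR adjusted p = 2.57e-05), and the median was -0.0011, against 0.011 over all genes. The lists were chosen with results of these data known, and the libraries are those of the members.

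Partners and regulators of the families were tested in the same comparison, where 18.2% of all genes fell and 18% rose. Of the 2 Egr corepressors, Nab2, itself an Egr target, fell by 0.33 (SE 0.074, edgeR adjusted p = 2.02e-04), and Nab1 had -0.032 (SE 0.049, adjusted p = 0.66). Of the 3 retinoid X receptors, Rxrg, the form enriched in striatum, fell by 0.78 (SE 0.088, edgeR adjusted p = 3.36e-12) and Rxrb by 0.18 (SE 0.028, edgeR adjusted p = 2.22e-07). Of 22 upstream kinases and factors, 10 fell and 1 rose. Rps6ka4 (-0.69, SE 0.038, edgeR adjusted p = 2.32e-28) and Rps6ka5 (-0.40, SE 0.061, edgeR adjusted p = 8.81e-08), the kinases MSK2 and MSK1 that act below ERK, had the smallest adjusted p. Elk1, a factor that acts with Srf, fell by 0.22 (SE 0.041, edgeR adjusted p = 1.14e-05). The 1 that rose was Creb1, by 0.11 (SE 0.036, edgeR adjusted p = 0.017).

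The ERK phosphatases and reported Egr targets were mixed. Of 6 phosphatases 2 fell at 6 months (18.2% of all genes fell), Dusp14 by 1.06 (SE 0.22, edgeR adjusted p = 4.17e-05) and Dusp6, which dephosphorylates ERK, by 0.61 (SE 0.17, edgeR adjusted p = 0.0024). At 10 months Dusp14 fell (-0.61, SE 0.15, edgeR adjusted p = 0.0024) and Dusp5 rose (0.41, SE 0.099, edgeR adjusted p = 0.0013, where 12.4% of all genes rose). Of 6 reported targets 4 fell at 6 months against the same 18.2%: Cdk5r1, an activator of Cdk5 (-0.15, SE 0.032), the corepressor gene Nab2, the synaptic gene Arc (-0.91, SE 0.24) and the GABA receptor subunit gene Gabra4 (-0.19, SE 0.056), with adjusted p from 7.99e-05 to 0.0046. Arc is also among the further immediate early genes above, and Nab2 among the corepressors, so the counts of these lists overlap. At 10 months, where 12.1% of all genes fell, 1 corepressor, 2 retinoid X receptors, 5 upstream genes and 3 targets did so.

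The genes most like the 7 members between libraries were found by the mean over the 3 ages of the Pearson r between a gene's residuals and the mean standardised residual of the members, among 16858 genes tested at all ages. Fosl2 (mean r 0.93), an AP-1 factor, came first, followed by Dusp6 and Midn (0.87 each), Slc25a25 (0.83), Dusp14 (0.82), Srf (0.81), Tiparp (0.80), and Shisa2, Rgs2 and Rnd3 (0.79 each). Srf is the factor that binds the CArG box printed above for Egr2. The ranking used all libraries, those numbered F1 included, and was not repeated without them. Of these genes, Fosl2 fell in Q175 at 6 months by 0.80 (SE 0.31, edgeR adjusted p = 0.038) and Srf by 0.42 (SE 0.082, edgeR adjusted p = 1.66e-05). In this comparison 18.2% of all genes fell, and Dusp6 and Dusp14 fell as given above. Q175 values of Midn, Slc25a25, Tiparp, Shisa2, Rgs2 and Rnd3 are not given here. Fosl2 had -0.024 (SE 0.25, adjusted p = 0.96) and Srf -0.17 (SE 0.069, adjusted p = 0.061) at 10 months.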

How the data were processed

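Striatal polyadenylated RNA was extracted with the miRNeasy kit and sequenced on an Illumina instrument, per the labels' protocols, and CASAVA 1.8.2 is named in the submitters' processing notes. The authors deposited estimated counts (expected counts) and FPKM for each gene. Neither aligner nor genome build is stated in the labels. Of the positive deposited counts, 32.7% were not whole (tolerance 1e-06), and they were rounded before testing. Groups came from the labels.

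Each age was fitted with edgeR 4.0.16 (R 4.3.3), with TMM scaling, genes kept by filterByExpr (minimum count 10, minimum total 15), group and sex as terms, robust quasi-likelihood F tests and Benjamini-Hochberg adjustment over all genes (17006, 17642 and 17170 at 2, 6 and 10 months). A call is an adjusted p under 0.05. SEs are the log2 fold change divided by the root of F. The trend is a linear contrast over the 6 line means, and differences between ages came from 1 fit of all libraries and 17863 genes. Residuals used log2 CPM with a prior count of 1. DESeq2 1.42.0, limma 3.58.1 on log2(FPKM + 1) or log2(FPKM + 0.1), other scaling, filters, covariates and left-out libraries were alternatives. Those without the libraries numbered F1, over 17% mitochondrial or against their sex label, and those of the differences between ages, were added after the data were seen. The fits were tested on simulated counts. Sequences are from RefSeq, and scripts used Python 3.11.15 with pandas 2.3.3. Members, gene lists and tests were chosen with earlier results of these data known. Named genes outside the 7 are, per list, up to 4 called in Q175 against Q20 at 6 or 10 months with the smallest adjusted p at 6 months, and the 10 genes most alike. 1 gene under this rule is not reported here. Nab1 and Creb1 were named after their values were seen. 1 listed gene was not found.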

Additional observations from a re-analysis of the deposited data

Results flagged for a closer look

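Of 182 sets of 8 values (7 genes in 26 groups), 13 had a lowest or highest library farther from the rest than Dixon's limit for 8 values allows. Chance gives about 1 in 20. Low libraries were Egr1 in Q111 F2 at 10 months (32.1 FPKM) and in Q20 F1 at 6 months (70.8 FPKM), Egr2 in F1 of the wild types housed with Q140 at 6 months (1.63 FPKM), and Egr3 in Q111 F2 (14.2 FPKM) and Q80 M5 (0.569 FPKM) at 2 months. Q80 M5 was also the high library of its group in Egr4 (31.9 FPKM), and it had the lowest correlation with other libraries of its age (0.901).

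The other 7 were all high Nr4a2 libraries. They were Q20 F3 (8.83 FPKM), Q111 F4 (0.939 FPKM) and Q140 F3 (7.80 FPKM) at 2 months, Q20 M3 (6.39 FPKM), Q80 M3 (5.55 FPKM) and Q92 F2 (16.3 FPKM) at 6 months, and Q80 M4 (5 FPKM) at 10 months. Q92 F2 also had the highest cortical score (2.88) and the highest claustrum and deep-layer score (2.73) of all libraries.

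Of 84 tests of a difference in effect (between ages or sexes), 2 passed the threshold in edgeR. The Egr2 effect of Q175 differed between 6 and 2 months by -1.60 on the log2 scale (adjusted p = 0.016). The Nr4a2 effect of Q111 differed between the same ages by 3.24 (adjusted p = 0.0076), and by 0.87 (adjusted p = 0.24) with tissue scores as covariates.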

How the results depend on the processing

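Of 429 recomputed single values, 394 kept their direction and side of the threshold, 24 lost the call, 3 gained it and 8 changed sign; of 192 values without 1 library, 179, 5, 4 and 4 did so. Egr2 in Q175 against Q20 at 6 months was called under every one of its 11 settings (-2.17 to -1.52) and without any 1 library (-2.202 to -2.02). The sign changes were all of uncalled 10-month Q175 values. Egr4 (-0.10) became 0.0055 and 0.016 with limma on log2(FPKM + 1) and on log2(FPKM + 0.1), 0.0013 with only the 2 groups, and -0.22 to 0.013 without 1 library. Nr4a3 (-0.077) became 0.074, 0.14 and 0.032 under the same settings, 0.042 with wild types as the reference, 0.066 without F1 libraries, and -0.23 to 0.025 without 1 library. The causes were not tested.

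Of 113 recomputed counts of calls, 108 stayed within 1.5 times. The trend at 10 months had 3 calls, and 5 with the rank of the line. The difference between ages had 1 call for Q175, and 2 without libraries under 0.97 or without those over 17% mitochondrial (Egr2 and Egr1). Q175 at 10 months had 1 call, and 1 to 2 without 1 library (2 without Q175 F3 or Q20 M1, M2 or M3). Same-numbered libraries are not stated to share a litter or day, and in no comparison did every same-numbered pair deviate together with an r over 0.1. That r is over all genes tested and does not measure the shift of the members with the number at 6 months. The median r was -0.041, 0.076 and -0.025 in Q175 with Q20 at 2, 6 and 10 months (0, 3 and 0 best with their own number) and ran from 0.012 in Q92 to 0.13 in Q111 (4 of 8 best with their own number) in a line with its own wild types at 6 months. With the replicate block, calls against Q20 at 6 months were 18 in place of 11, and against own wild types 12 in place of 6. Against Q20 the calls gained were Egr1 and Egr3 in Q92, Egr1 in Q111, Egr4, Nr4a3 and Nr4a2 (higher) in Q140, and Nr4a3 in Q175 (-0.76, adjusted p = 0.0013). Against own wild types they were Egr3 in Q111, Egr4, Nr4a1 and Nr4a3 in Q140, and Egr4 and Nr4a1 in Q175. No alternative was run for sex at 6 or 10 months, for the effect by sex or for the wild-type groups. The lowest count of any of the 7 genes in a library was 31, and precision was limited more by the spread between libraries than by depth.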
